A study of Caenorhabditis elegans with 48 samples.

Results

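The constitutive cytosolic chaperones and their co-chaperones were followed as 10 Caenorhabditis elegans genes, of 13129 genes listed in the expression tables. The genes were chosen by name, from their WBGene identifiers, and all 10 were listed in the tables of all 4 strains and passed the filter on low values. They are hsp-1, hsp-110, dnj-12, dnj-13, dnj-19, unc-23 and bag-1 of the Hsp70 system, and daf-21, sti-1 and cdc-37 of the Hsp90 system. The gene daf-21, which encodes Hsp90, appears under its identifier WBGene00000915 in the files and is named hsp-90 in the annotation.

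Messenger RNA of whole young adults was measured by directional, polyA-selected RNA sequencing in 48 libraries, 3 for each of 16 groups, and the question put by the design is how the heat response depends on the heat shock factor HSF-1 in different tissues. JTL611 carries hsf-1::aid::gfp, an HSF-1 fused to an auxin-inducible degron and GFP, together with ieSi57, in which eft-3p drives TIR1::mRuby in the soma, and CA1200 carries ieSi57 alone. JTL621 carries the same hsf-1 fusion with ieSi38, in which sun-1p drives TIR1::mRuby in the germline, and CA1199 carries ieSi38 alone. All 4 strains thus hold unc-119(ed3) with a Cbr-unc-119(+) rescue and a TIR1 transgene, and TIR1 is the plant F-box protein that, with auxin, marks degron-tagged proteins for destruction. Animals grown for 51 h spent 2 h on auxin plates or on ethanol plates, ethanol being the solvent, and were then heat shocked at 34 °C for 30 min or collected without heat shock at 20 °C. Each plate held many animals, so a library is a pool, and the labels do not say whether replicates came from separate cultures, so p-values measure only the spread between these libraries. In such bulk samples fewer cells of a type and less RNA per cell cannot be told apart.

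Hsp70 folds proteins in a cycle of ATP binding and hydrolysis. Hsp40 (J-domain) proteins deliver clients and start hydrolysis, while nucleotide exchange factors, among them Hsp110 and the BAG-domain proteins, release ADP and reset the chaperone. Clients such as kinases and steroid receptors pass on to Hsp90 with the help of bridging proteins, and in animals transcription of many of these genes is driven by HSF-1 under heat.

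Depth was 9000611 to 24025791 reads on listed genes per library, at which 3 reads, the limit that a count of 0 allows, correspond to 0.127 to 0.478 CPM (counts per 1000000 reads). The replicate 2 library of JTL621 on auxin with heat shock stands apart, with the fewest reads and 34.5% of them on ribosomal RNA genes, where the median library had 8.26%. The tagged gene, hsf-1, averaged between 30.4 ± 9.46 CPM in JTL621 on auxin with heat shock and 51.8 ± 6.27 CPM in CA1200 on ethanol with heat shock (SD, n = 3 each). It was called in 0 of 26 contrasts, and since the degron removes protein and not messenger RNA, its level does not check depletion. Marker genes of the germline (10 of 10), sperm (7 of 7), body wall muscle (5 of 5), pharynx (4 of 4), intestine (6 of 6) and neurons (5 of 5) were listed in every strain and none of those listed was at 0 in all libraries of a group. Of 4 epidermis markers, 2 were listed in CA1200 and 3 in the other strains.

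Over their exon length the members spanned a wide range of levels, which are set side by side here across tables normalised strain by strain. Without heat shock, the Hsp70 gene hsp-1 and the Hsp90 gene daf-21 were highest, with medians over the 8 unheated group means of 1622 and 1391 CPM per kb of exon. Then came hsp-110 at 205, the class A Hsp40 genes dnj-19 and dnj-12 at 203 and 190, and sti-1, the Hsp70 to Hsp90 bridging protein, at 165 CPM per kb. The class B Hsp40 gene dnj-13 had 116 CPM per kb, bag-1 had 75.0, the kinase-specific Hsp90 co-chaperone cdc-37 had 69.6, and unc-23, whose product is a BAG-domain partner of Hsp70, was lowest at 11.8. The group means of hsp-110 (178 to 220 CPM per kb) and dnj-19 (176 to 214) covered the same range, as did those of bag-1 (65.1 to 77.2) and cdc-37 (62.8 to 74.5). After heat shock the medians were 1966 CPM per kb for hsp-1, 1857 for daf-21, 584 for hsp-110 and 57.0 for unc-23.

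**Figure D1:**
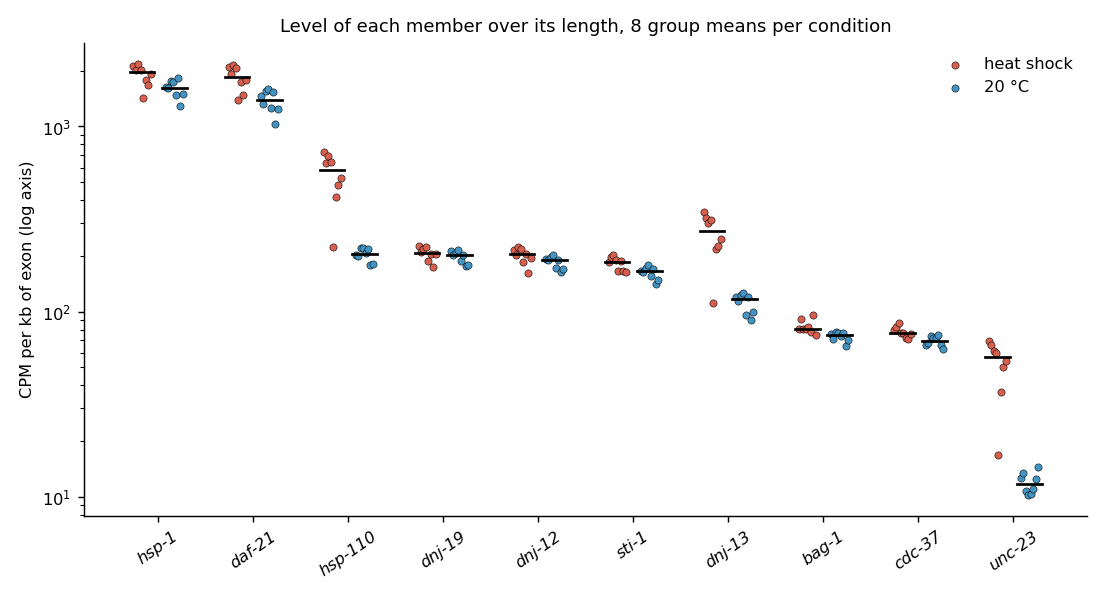
CPM per kb of exon (log axis) of each member, with 1 point for the mean of each of the 8 heat shocked groups (left, red) and the 8 groups at 20 °C (right, blue) and a bar at their median. The members hsp-1 and daf-21 lie highest in both conditions, and the medians of hsp-110, dnj-13 and unc-23 are the most separated between conditions.

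Heat shock on ethanol plates raised hsp-110, dnj-13 and unc-23 in all 4 strains, and daf-21 was called higher in all strains but JTL611. These are the Hsp110 exchange factor, a class B Hsp40, a BAG-domain co-chaperone and Hsp90. The direct comparison of this response between JTL611 and CA1200 did not call a difference for daf-21. Called members, all higher with heat, were 3 of 10 in JTL611 (background 6.49% of all genes called), 4 of 10 in CA1200 (13.24%), 4 of 10 in JTL621 (9.97%) and 4 of 10 in CA1199 (18.31%), where a call is a limma adjusted p under 0.05 over all genes tested. The background counts both directions. Of all genes, 2.31% were called higher in JTL611, 5.73% in CA1200, 2.54% in JTL621 and 3.94% in CA1199. The median log2 fold change over the 10 members was 0.12 in JTL611, 0.16 in CA1200, 0.32 in JTL621 and 0.33 in CA1199, and over all genes tested it was 0.00 in JTL611, −0.01 in CA1200, 0.01 in JTL621 and 0.01 in CA1199. The members divided into 3 with log2 fold changes of 0.86 or more in every strain and 7 that stayed at 0.55 or less.

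The Hsp110 gene hsp-110 (chromosome III, 8443910 to 8446909, minus strand, WBcel235, 6 exons) had 983, 1175 and 1219 CPM in heat shocked JTL611 on ethanol, against 618, 576 and 562 CPM without heat shock. In CA1200 it had 1834, 1703 and 1674 CPM with heat shock, against 611, 562 and 606 CPM without. Every heat shocked library was above every unheated one in both strains. Its rise was 1.92-fold in JTL611 (log2 0.94, SE 0.09), 2.93-fold in CA1200 (log2 1.55, SE 0.07), 2.91-fold in JTL621 (log2 1.55, SE 0.12) and 3.21-fold in CA1199 (log2 1.68, SE 0.12). The limma adjusted p was 4.24e-05 in JTL611 and 3.88e-07 or lower in CA1200 and CA1199, and it was 3.41e-06 in JTL621.

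The J-domain gene dnj-13 (chromosome II, 11545701 to 11547360, plus strand, 3 exons), whose product stimulates ATP hydrolysis by Hsp70, had 313, 295 and 301 CPM in heat shocked JTL611 on ethanol, against 182, 160 and 158 CPM without heat shock. In CA1200 it had 455, 431 and 419 CPM with heat shock, against 186, 175 and 169 CPM without. The groups did not overlap in any strain. It rose 1.82-fold in JTL611 (log2 0.86, SE 0.08), 2.46-fold in CA1200 (log2 1.30, SE 0.06), 2.48-fold in JTL621 (log2 1.31, SE 0.10) and 2.80-fold in CA1199 (log2 1.48, SE 0.09).

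The co-chaperone gene unc-23 (chromosome V, 8936359 to 8939684, plus strand, 4 or 5 exons by transcript), known in C. elegans for its part in keeping body wall muscle attached, had the lowest level and the largest relative rise. In heat shocked JTL611 on ethanol it had 84.0, 68.2 and 93.7 CPM, against 21.5, 26.0 and 26.4 CPM without heat shock. In CA1200 it had 138, 129 and 132 CPM with heat shock, against 24.6, 19.05 and 25.1 CPM without. No library of one condition reached into the range of the other. Its rise was 3.33-fold in JTL611 (log2 1.69, SE 0.11), 5.81-fold in CA1200 (log2 2.50, SE 0.11), 3.77-fold in JTL621 (log2 1.88, SE 0.18) and 4.89-fold in CA1199 (log2 2.26, SE 0.09). Ranked by log2 fold change over all genes tested, unc-23 stood 75th of 12010 in JTL611, 33rd of 11878 in CA1200, 69th of 12228 in JTL621 and 40th of 12184 in CA1199. The summed pharynx markers were also higher with heat, over all 48 libraries, at 112 to 389 CPM in heat shocked libraries and 19.6 to 84.5 CPM in unheated ones. The summed body wall muscle markers ranged over 3441 to 8626 CPM in heat shocked libraries and 2267 to 4849 CPM in unheated ones, which overlap. Neuron markers were lower with heat, and on ethanol their sums were 184 to 188 CPM in heat shocked and 195 to 216 CPM in unheated JTL611, 157 to 168 and 185 to 192 CPM in CA1200, and 165 to 181 and 209 to 237 CPM in JTL621, with no overlap. In CA1199 they were 170 to 191 CPM with heat shock and 190 to 234.7 CPM without, which overlap. Intestine markers ranged over 11647 to 23936 CPM in heat shocked libraries and 14740 to 28424 CPM in unheated ones. Their part in the rise of the members was not tested.

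**Figure D2:**
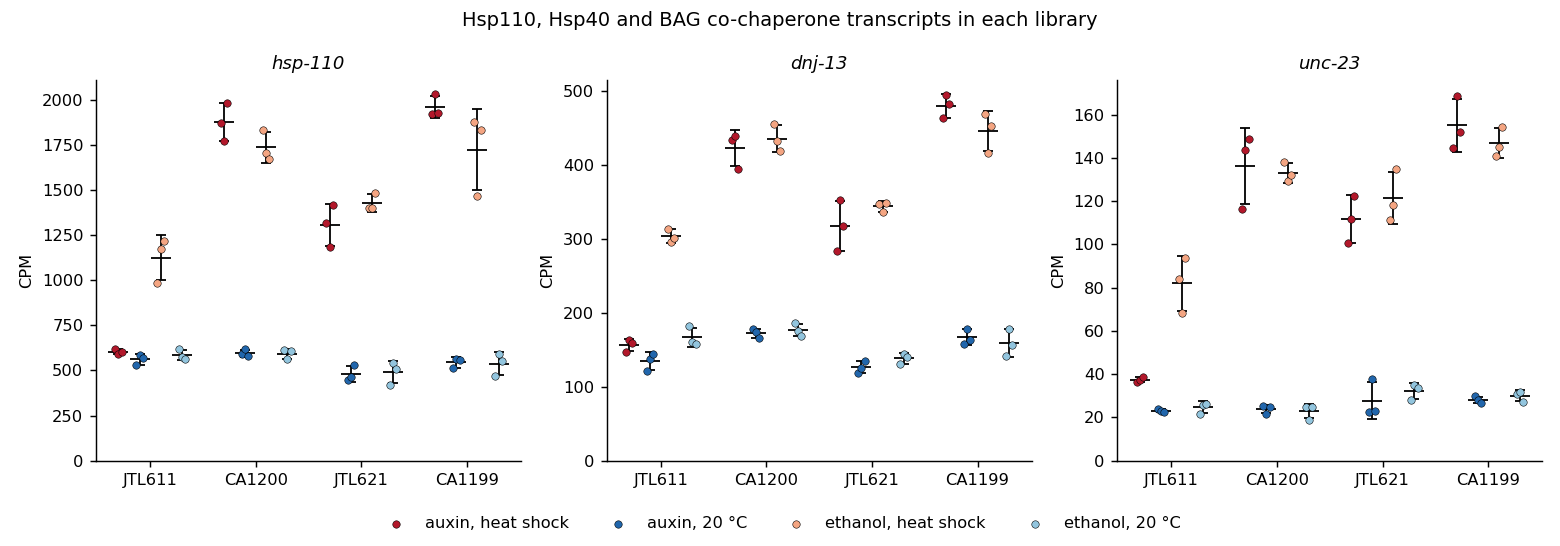
CPM of hsp-110, dnj-13 and unc-23 in each of the 48 libraries, by strain, plate and temperature; points are libraries, the bar is the mean and the whisker the SD of 3 libraries. In JTL611 the heat shocked auxin libraries of hsp-110 (592 to 617 CPM) lie near the unheated ones, while in each other strain the heat shocked libraries, with 1185 CPM or more, lie above all unheated ones.

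The Hsp90 gene daf-21 changed by less in relative terms. Heat shocked CA1200 on ethanol had 5364, 4811 and 4542 CPM of daf-21, against 4032, 3605 and 3576 CPM without heat shock, a rise of 1.31-fold (log2 0.39, SE 0.10, adjusted p = 0.0228). It rose 1.44-fold in JTL621 (log2 0.53, SE 0.13, adjusted p = 0.0191) and 1.46-fold in CA1199 (log2 0.55, SE 0.13, adjusted p = 0.0104). In JTL611 it had 4053, 4183 and 4064 CPM with heat shock, against 3971, 3481 and 3480 CPM without, and its log2 fold change of 0.17 (SE 0.12, 95% interval −0.08 to 0.43) was not called (limma adjusted p = 0.472). Per kb of exon the rise of daf-21 in CA1200 was 495 CPM, beside 423 CPM for hsp-110, 185 CPM for dnj-13 and 49.4 CPM for unc-23. The daf-21 calls are the least secure of these. With quantile normalization they were lost in all 3 strains, at a log2 fold change of 0.12 in CA1200 (adjusted p = 0.455), 0.38 in JTL621 (0.0578) and 0.35 in CA1199 (0.0968). In CA1200 the fits that left out 1 ethanol library with heat shock (replicate 1 or 2) or without it (replicate 2 or 3) gave adjusted p of 0.0901, 0.0542, 0.0860 and 0.0807. In JTL621 it was 0.0897, 0.0623 and 0.0531 when replicate 1, 2 or 3 with heat shock was left out, and 0.0676 and 0.0906 when unheated replicate 1 or 3 was. In CA1199 the adjusted p was 0.0827 where the fit held no auxin libraries.

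The Hsp70 gene hsp-1, the constitutive partner of the Hsp40 and exchange factors, was not called with heat on ethanol plates in any strain. In JTL611 on ethanol it had 3610, 3426 and 3991 CPM with heat shock, against 4074, 3591 and 3662 CPM without. In CA1200 it had 4589, 3742 and 4245 CPM with heat shock, against 3588, 3616 and 3671 CPM without. The groups overlapped in JTL611 and were apart in CA1200, where the log2 fold change was 0.20 (SE 0.11, 95% interval −0.03 to 0.44, adjusted p = 0.262). It was −0.04 (SE 0.13) in JTL611, 0.36 (SE 0.14, adjusted p = 0.135) in JTL621 and 0.32 (SE 0.13, adjusted p = 0.112) in CA1199. The unadjusted p of hsp-1 was under the threshold in the last 2 of these, at 0.0231 and 0.0298.

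The remaining 5 members had no call on ethanol plates. For bag-1, a BAG-domain exchange factor, the log2 fold change was between 0.02 in JTL611 and 0.34 in CA1199, and in CA1199 replicate 2 with heat shock had 81.6 CPM, against 61.4 and 54.4 CPM in the others. Without heat shocked replicate 3 of CA1199, bag-1 was called (log2 0.47, limma adjusted p = 0.0171), and so was sti-1 (log2 0.36, adjusted p = 0.0423). For dnj-12 and dnj-19, whose products are class A Hsp40s that present clients to Hsp70, it was 0.08 to 0.19 and 0.02 to 0.20, and for sti-1 it was 0.09 to 0.27. The cdc-37 values were −0.04 in JTL611, 0.09 in CA1200, 0.29 in JTL621 and 0.30 in CA1199, the last with an unadjusted p of 0.0265 and an adjusted p of 0.104.

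**Figure D3:**
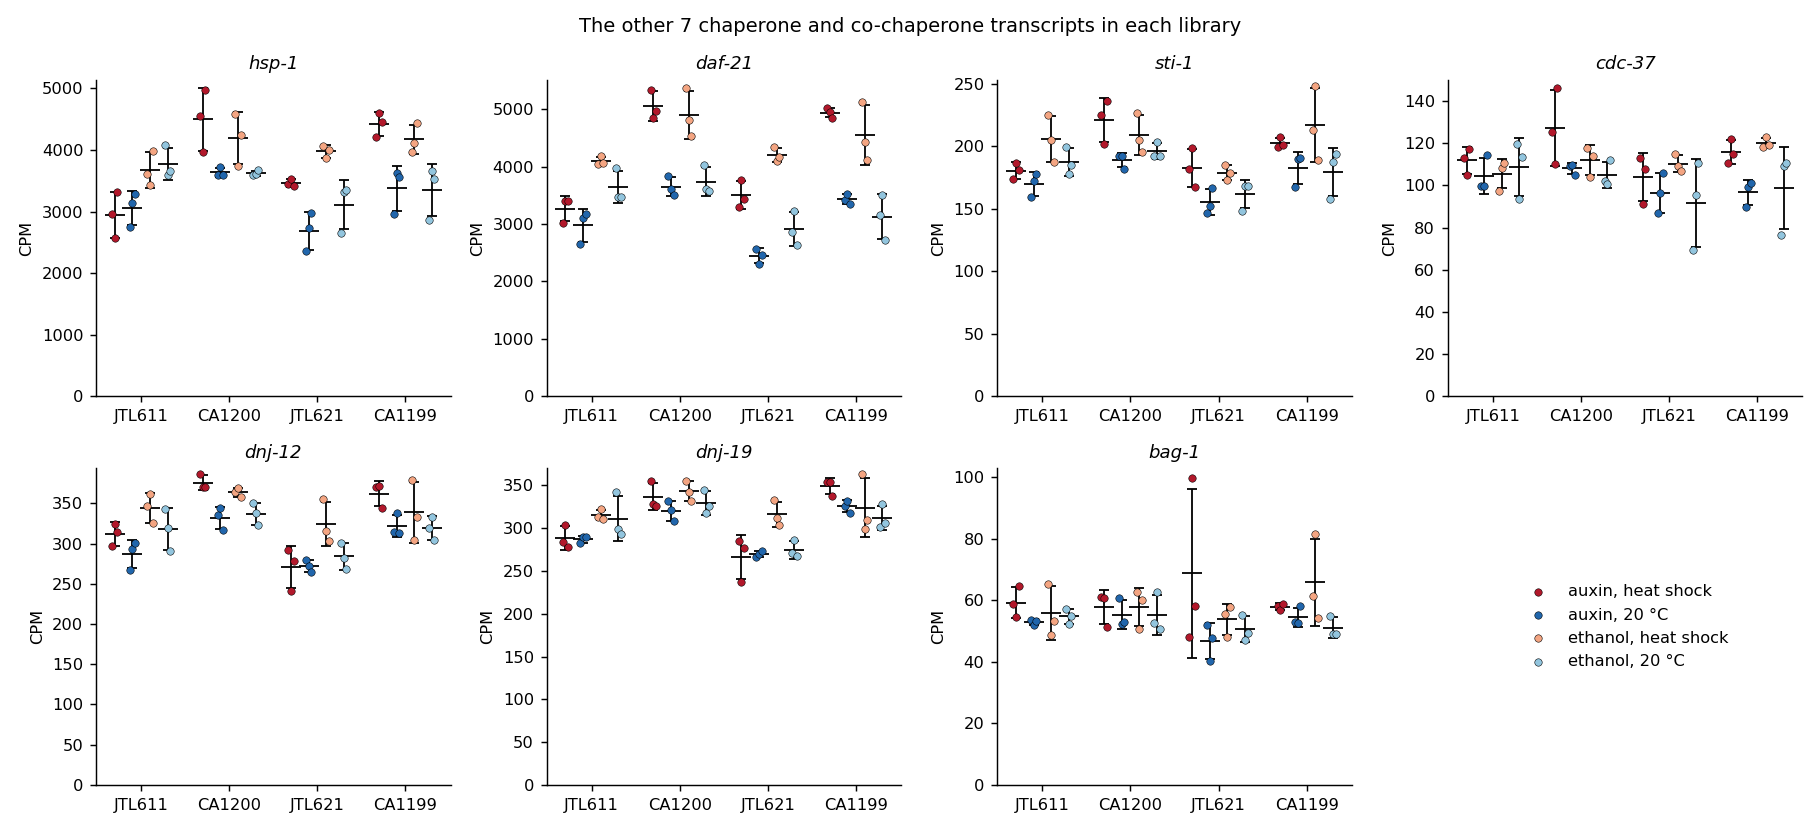
CPM of the other 7 members in each of the 48 libraries, drawn as for the raised members and with the axis starting at 0. The heat shocked and unheated libraries of dnj-12, dnj-19, cdc-37 and bag-1 lie close together, and the replicate 2 library of JTL621 on auxin with heat shock has the highest bag-1 value, 99.8 CPM.

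On auxin plates heat shock raised hsp-110, dnj-13, unc-23 and daf-21 in CA1200, JTL621 and CA1199, and unc-23 alone of the members in JTL611. Called members, all higher with heat, were 1 of 10 in JTL611 (background 7.64%), 6 of 10 in CA1200 (19.43%), 4 of 10 in JTL621 (17.52%) and 4 of 10 in CA1199 (16.37%). Of all genes, 2.24%, 9.57%, 6.22% and 3.83% were called higher in these strains, in that order. The rise of hsp-110 was 3.15-fold in CA1200, 2.72-fold in JTL621 and 3.60-fold in CA1199, and that of unc-23 was 5.72-fold in CA1200, 4.02-fold in JTL621 and 5.51-fold in CA1199. Differences between strains in the heat response on auxin were not tested. The CA1200 calls of sti-1 (log2 0.22, SE 0.07, adjusted p = 0.0409) and dnj-12 (log2 0.18, SE 0.05, adjusted p = 0.0375) were small. They were lost with totals that leave out rRNA genes (adjusted p = 0.185 and 0.390), and sti-1 or dnj-12 or both were lost without any 1 of the 6 libraries, at adjusted p of 0.0637 to 0.155. Heat shocked auxin replicate 3 of CA1200 has 18.5% of its reads on rRNA genes. For hsp-1 and cdc-37 in CA1200 a fit with the replicate number as a block gave adjusted p of 0.0442 and 0.0436, against 0.0679 and 0.0905 without it, and for hsp-1 in CA1199 it gave 0.0293, against 0.0625. Without heat shocked replicate 2 of CA1200, hsp-1 (adjusted p = 0.0340) and cdc-37 (0.0229) were called as well. With limma-voom hsp-1 was called in CA1200 (0.0303) and CA1199 (0.0308). In CA1199 it was also called with totals that leave out rRNA genes (0.0347). The CA1199 fit without ethanol libraries called hsp-1 (0.0290) and cdc-37 (0.0166). The daf-21 call was lost without unheated replicate 3 of CA1199 (adjusted p = 0.0586) or unheated replicate 2 of JTL621 (0.0690), where the JTL621 fit held no ethanol libraries (0.113), and in all 3 strains with quantile normalization (0.0588 to 0.280). In JTL621, bag-1 had 48.1, 99.8 and 58.2 CPM with heat shock, and leaving out the first of these gave a call (log2 0.70, adjusted p = 0.0217), against a log2 fold change of 0.49 (SE 0.21, adjusted p = 0.121) with all 3. The value of 99.8 CPM is from replicate 2, the library with the fewest reads and 34.5% of them on rRNA genes.

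In JTL611 on auxin, where somatic HSF-1 is the degron target, only unc-23 was called among the members after heat shock. It had 36.5, 37.4 and 38.7 CPM with heat shock, against 23.8, 23.1 and 22.7 CPM without, a rise of 1.62-fold (log2 0.67, SE 0.11, adjusted p = 0.00313). The groups were well apart, and the call held in all alternatives run, at a log2 fold change of 0.65 to 0.69. The other raised members came close to their unheated levels. There hsp-110 had 617, 592 and 605 CPM with heat shock, against 530, 585 and 570 CPM without (log2 0.11, SE 0.09, 95% interval −0.09 to 0.30, adjusted p = 0.553). For dnj-13 the values were 147, 163 and 159 CPM with heat shock and 121, 138 and 145 CPM without (log2 0.22, SE 0.08, 95% interval 0.04 to 0.39, adjusted p = 0.143). Neither pair of groups overlapped. As a share of the rise in CPM on ethanol, the rise on auxin in JTL611 was 7.94% for hsp-110, 15.9% for dnj-13 and 24.96% for unc-23. In CA1200 those shares were 112%, 96.7% and 102%, in JTL621 88.0%, 93.0% and 94.0%, and in CA1199 119%, 109% and 109%.

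**Figure D4:**
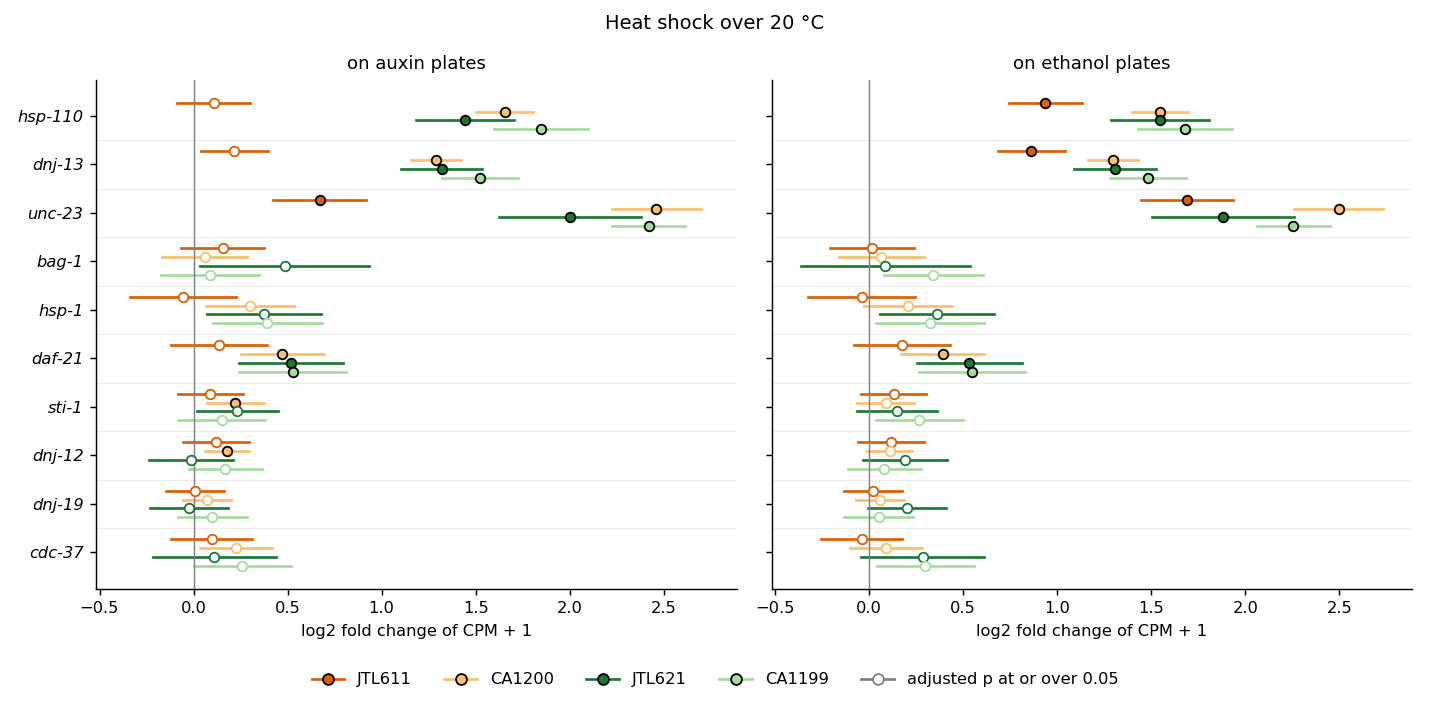
Log2 fold change of CPM + 1 for heat shock over 20 °C on auxin plates (left) and ethanol plates (right), for each member and strain, with 95% intervals from the limma fit; filled points have an adjusted p under 0.05. On auxin the JTL611 values of hsp-110 (0.11) and dnj-13 (0.22) lie apart from those of the other strains, which are 1.29 or higher.

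The direct comparison of auxin with ethanol after heat shock gave 3 called members in JTL611, all lower with auxin (background 0.325%), and 0 of 10 in CA1200 (0.0589%), JTL621 (0.172%) and CA1199 (0.246%). The heat shocked auxin libraries of JTL611 had 617, 592 and 605 CPM of hsp-110, against 983, 1175 and 1219 CPM on ethanol, a log2 fold change of −0.89 (SE 0.09, adjusted p = 0.00019). For dnj-13 they had 147, 163 and 159 CPM, against 313, 295 and 301 CPM (log2 −0.95, SE 0.08, adjusted p = 4.72e-05). For unc-23 they had 36.5, 37.4 and 38.7 CPM, against 84.0, 68.2 and 93.7 CPM (log2 −1.10, SE 0.11, adjusted p = 0.000244). In all 3 genes every auxin library was below every ethanol library, and the calls held in all alternatives and with each library left out. The authors' deposited table of the same comparison lists a log2 fold change of −0.89 for hsp-110 (FDR 7.46e-16), −0.96 for dnj-13 (FDR 3.09e-18) and −1.12 for unc-23 (FDR 3.67e-18), and no other member has an FDR under 0.05 there in any strain. Marker sums in JTL611 after heat shock were 112 to 260 CPM on auxin and 120 to 310 CPM on ethanol for pharynx, and 3751 to 5796 CPM and 3441 to 6738 CPM for muscle, which overlap. Those of neurons were 166 to 175 CPM on auxin and 184 to 188 CPM on ethanol, which do not overlap, and their part in the result was not tested.

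Unadjusted p-values under the threshold were found for 6 of the 10 members in that comparison, and for 371 of 12010 genes tested. The 3 members among them that were not called had smaller differences. Heat shocked JTL611 on auxin had 2955, 2572 and 3319 CPM of hsp-1, against 3610, 3426 and 3991 CPM on ethanol (log2 −0.32, SE 0.13, 95% interval −0.61 to −0.04, adjusted p = 0.999). It had 3012, 3395 and 3408 CPM of daf-21, against 4053, 4183 and 4064 CPM (log2 −0.33, SE 0.12, adjusted p = 0.999), and sti-1 differed by −0.18 (SE 0.08). The libraries of 8 of 10 members, hsp-1 and daf-21 among them, did not overlap between plates. This was not counted over all genes, so no result about the members is drawn from it. The differences of hsp-1 and daf-21 did not pass over all genes. In the authors' deposited table their FDR is 0.211 for hsp-1 and 0.146 for daf-21. The median over the 10 members was −0.25, against −0.01 over all genes. In CA1200, JTL621 and CA1199 the hsp-1 values were 0.10 (SE 0.11), −0.20 (SE 0.14) and 0.08 (SE 0.13), and those of daf-21 were 0.05, −0.26 and 0.12. The unadjusted limma p was under 0.05 for 2 members in JTL621, and for 420 of 12228 genes tested there. It was so for 0 members in CA1200 and CA1199. The median over the 10 members in JTL621 was −0.13.

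Without heat shock, auxin called 0 of 10 members in JTL611 (background 0.0916%), CA1200 (0.177%), JTL621 (0.172%) and CA1199 (0.213%) by limma, and limma-voom called none either. In JTL611 the unadjusted p was under 0.05 for 3 members and for 134 of 12010 genes tested. In the other strains it was so for 0 members. In unheated JTL611 all 10 members had a negative log2 fold change, with a median of −0.13, against 0.00 over all genes. The largest was that of dnj-13, which had 121, 138 and 145 CPM on auxin, against 182, 160 and 158 CPM on ethanol (log2 −0.31, SE 0.08, adjusted p = 0.9999). The values of hsp-1 and daf-21 were −0.31 (SE 0.13) and −0.29 (SE 0.12), close in size to those after heat shock. The auxin and ethanol libraries did not overlap for 5 of 10 members, dnj-13, hsp-1 and daf-21 among them. How often this occurs over all genes was not computed, nor was the share of all genes with a negative value. No result about the members is drawn from either count. In JTL621 9 of 10 members were negative too, with a median of −0.09, whereas 5 of 10 were negative in CA1200 and 2 of 10 in CA1199. The members share their libraries, so these are not separate measurements.

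**Figure D5:**
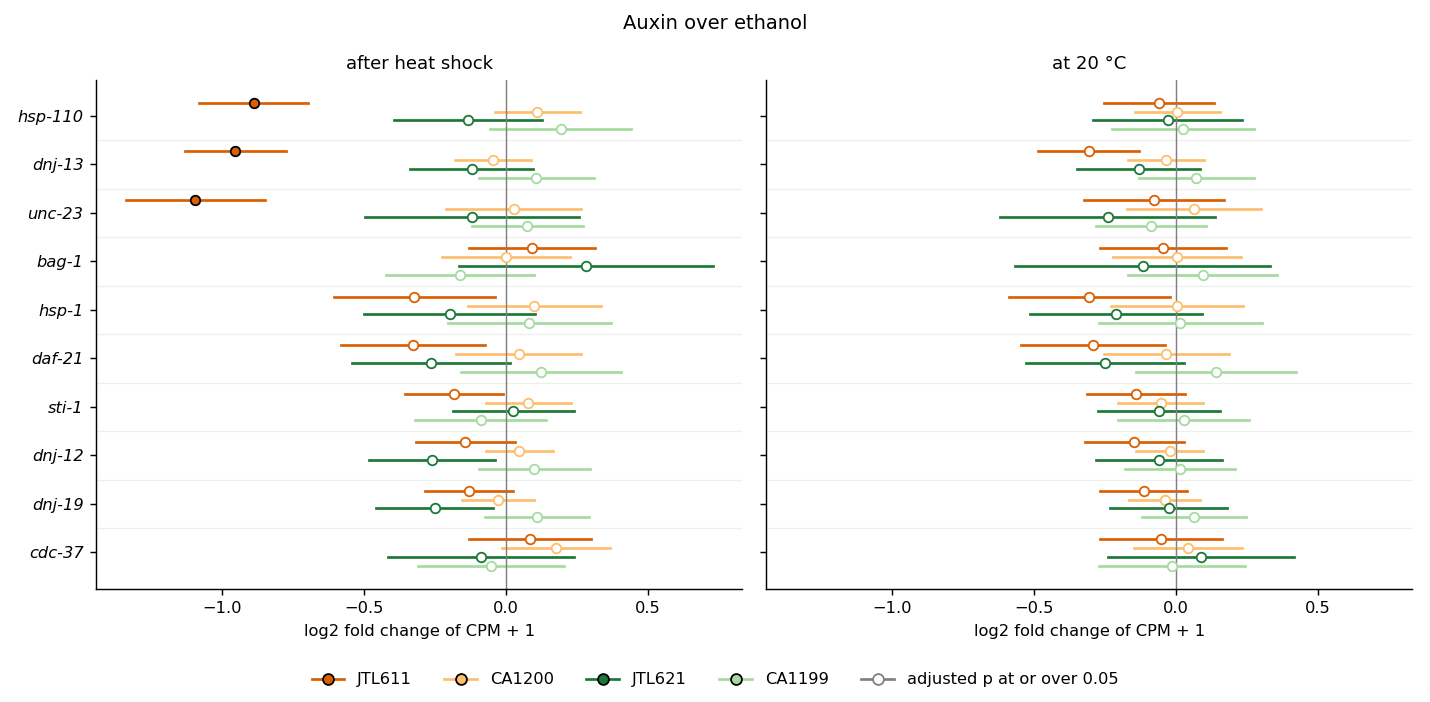
Log2 fold change of CPM + 1 for auxin over ethanol after heat shock (left) and at 20 °C (right), for each member and strain, with 95% intervals from the limma fit; filled points have an adjusted p under 0.05. After heat shock hsp-110, dnj-13 and unc-23 are at −0.89, −0.95 and −1.10 in JTL611, and no member is called at 20 °C.

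The interaction, which is the heat response on auxin minus the heat response on ethanol, was called for 2 of 10 members in JTL611 (background 0.2%) and 0 of 10 in CA1200 (0%), JTL621 (0%) and CA1199 (0%). In those last 3 strains limma called 0 of all genes, the unadjusted p was under 0.05 for 185, 234 and 170 genes, and no member had such a p. In JTL611 the interaction was −0.83 for hsp-110 (SE 0.13, adjusted p = 0.0152) and −1.02 for unc-23 (SE 0.16, adjusted p = 0.0192), and −0.65 for dnj-13 (SE 0.12), which was not called (adjusted p = 0.0589). The call of hsp-110 was lost in 7 of the 12 fits that left out 1 library and that of unc-23 in 6 of 12, at adjusted p of up to 0.0743 and 0.0853, while the values stayed at −0.93 to −0.77 and −1.14 to −0.92. Quantile normalization also lost that of hsp-110 (−0.77, adjusted p = 0.122), and limma-voom lost that of unc-23 (−1.02, adjusted p = 0.0545). The fits that left out a library and lost a call were those without any 1 of the 3 heat shocked auxin libraries or without unheated auxin replicate 2 or 3 (both genes), without unheated ethanol replicate 2 or 3 (hsp-110) and without unheated auxin replicate 1 (unc-23). Leaving out replicate 1 of the unheated ethanol or auxin plates gave a call of dnj-13 (adjusted p = 0.0353 and 0.0325), as did quantile normalization (0.0477) and no filter on low values (0.0498). For hsp-1 (−0.02, SE 0.18) and daf-21 (−0.04, SE 0.17) the intervals run from −0.42 to 0.39 and −0.40 to 0.32.

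The effects were also compared between the strain with tagged HSF-1 and its control with the same TIR1 transgene. The auxin effect after heat shock was lower in JTL611 than in CA1200 for 3 of 10 members (background 0.229%): hsp-110 by −1.0 (SE 0.11, adjusted p = 6.48e-06), dnj-13 by −0.91 (SE 0.10, adjusted p = 7.7e-06) and unc-23 by −1.12 (SE 0.16, adjusted p = 0.000547). Without heat shock 0 of 10 members differed in the auxin effect (background 0.00849%). The unadjusted p was under 0.05 for 111 of 11782 genes tested and for 1 member, dnj-13 at −0.27 (SE 0.10). The interaction differed for hsp-110 alone (background 0.161%), at −0.94 (SE 0.15, adjusted p = 0.00331), with −0.64 (SE 0.14, adjusted p = 0.116) for dnj-13 and −0.98 (SE 0.23, adjusted p = 0.196) for unc-23. That of unc-23 was called without heat shocked ethanol replicate 2 of JTL611 (0.0287) or unheated ethanol replicate 2 of CA1200 (0.0344), and that of dnj-13 without unheated replicate 1 of JTL611 on ethanol (0.0356) or on auxin (0.0247). These contrasts share the JTL611 and CA1200 libraries with those above.

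On ethanol plates, where no auxin was given, the heat response itself was smaller in JTL611 than in CA1200 for hsp-110, the only member called (background 0.0764%). The difference was −0.61 (SE 0.11, adjusted p = 0.0216), and it was −0.81 (SE 0.16, adjusted p = 0.0811) for unc-23 and −0.43 (SE 0.10, adjusted p = 0.224) for dnj-13. The call of hsp-110 was lost without unheated replicate 1 of JTL611 (adjusted p = 0.0826), without heat shocked replicate 1 or 2 (0.116 and 0.0543) or unheated replicate 2 or 3 (0.0935 and 0.0537) of CA1200, and where the auxin libraries were not part of the fit (0.542). Without heat shocked replicate 3 or unheated replicate 1 of JTL611, unc-23 was called (0.0282 and 0.0333). Between JTL621 and CA1199, 0 of 10 members differed in the heat response on ethanol (background 0%) or in the auxin effect after heat shock (background 0%) by limma or limma-voom, with unadjusted p under 0.05 for 0 and 3 members and for 183 and 1230 of all genes. The auxin effect on hsp-110 differed by −0.33 there (95% interval −0.67 to 0.01) and that on unc-23 by −0.20 (95% interval −0.62 to 0.22), and both intervals leave out the size of the difference between JTL611 and CA1200.

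Other cytosolic co-chaperones moved less than hsp-110, dnj-13 and unc-23. Of 16 listed genes for further Hsp70 and Hsp90 partners, 0 rose with heat on ethanol in JTL611, JTL621 and CA1199. There 2.31%, 2.54% and 3.94% of all genes were called higher (6.49%, 9.97% and 18.31% in either direction). In CA1200, where 5.73% of all genes were called higher (13.24% in either direction), 3 of the 16 rose. They were pph-5, an Hsp90-bound phosphatase (log2 0.35, SE 0.09, adjusted p = 0.0176), the J-domain gene dnj-25 (log2 0.29, SE 0.08, adjusted p = 0.0246) and the myosin chaperone gene unc-45 (log2 0.28, SE 0.08, adjusted p = 0.0298). On auxin unc-45 and dnj-25 rose in CA1200 (log2 0.43 and 0.34), and none of the 16 was called in another strain or in any auxin contrast. Of the 9 heat-inducible cytosolic genes, which encode inducible Hsp70s and the hsp-16 small heat shock proteins and include near-identical pairs whose reads cannot be assigned with certainty, 9 rose with heat on ethanol in each strain. After heat shock 9 were lower on auxin in JTL611, where 0.233% of all genes were called lower. Their median log2 fold change was −6.77 beside −0.25 for the 10 members. With heat on auxin in JTL611, 8 of the 9 were still called higher, at a median log2 fold change of 2.48 over the 9, where 2.24% of all genes were called higher.

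Over the 16 group means, each strain centred on its own mean, the gene patterns most like that of hsp-110 among 11673 genes were those of ttll-12 (Pearson r 0.998), nurf-1 (0.997), scp-1 (0.996), Y38H6C.8 (0.994) and dnj-13 (0.993), with unc-23 10th (0.989). Those most like hsp-1 were daf-21 (0.954), the actin gene act-2 (0.941) and the ribosomal protein gene rpl-4 (0.925). For daf-21 they were act-2 (0.972), fkb-6, an Hsp90-binding immunophilin (0.959), and dnj-13 (0.958). The likeness of bag-1 to hsp-110 was 0.655 and that of dnj-19 was 0.584. These values describe group means that share libraries and a common rise with heat.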

How the data were processed

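RNA was measured in 48 libraries of 16 groups. The authors used STAR, featureCounts and edgeR, named without versions in the submitters' processing notes with the builds WBcel235 and ce11. The authors deposited 1 table per strain of log2 values, normalised per strain, and a comparison table whose log2 ratio, likelihood ratio score, p-value and FDR columns are theirs per the file headers. They match log2 CPM (counts per 1000000 reads) to which an offset of 0.116 to 0.119 CPM was added. The offset was subtracted on the linear scale, and 100% of values then lay within 0.05 of whole reads. As the unit is log2, no count model was run, and limma-voom on those reads was an alternative.

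Genes averaging 1 CPM or more entered limma (version 3.58.1, R 4.3.3). The response was log2(CPM + 1), the variance followed a trend on the mean, all 12 libraries of a strain (24 for 2 strains) shared 1 fit, and p-values were adjusted by Benjamini-Hochberg. Fold changes understate low genes, and levels are not tested between strains, whose tables were normalised separately. The members, lists and tests were chosen with earlier results of these data known. Names, exons and positions are from the Ensembl annotation of WBcel235. Replicate numbers pair libraries where all 3 same-number correlations exceeded 0.1, a pattern in the values that the labels do not state; this held in CA1200 (0.115 to 0.448), for heat on both plates (0.237 to 0.569) and unheated auxin (0.306 to 0.664) in JTL611, for heat on auxin in CA1199 (0.175 to 0.498), and for heat on ethanol (0.128 to 0.308) and unheated auxin (0.102 to 0.575) in JTL621. The fit was tested on simulated data, in which all genes had the same setting for the spread and libraries were independent. There it recovered most of the larger planted changes, and changes as small as those of daf-21 were not planted. Alternatives were another pseudocount (0.25), no filter, quantile normalization, median-of-ratios size factors, totals without rRNA genes, fits to only the libraries compared, the replicate block, limma-voom and leaving out each library of the groups compared. Floors cover counting error only. No sequence is shown, and other assays were not analysed here.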

Additional observations from a re-analysis of the deposited data

Results flagged for a closer look

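Differences between strains or plates in the effect on a member are listed here because the test of the difference itself passed; no explanation is weighed. The heat response on auxin minus that on ethanol in JTL611 was −0.83 for hsp-110 and −1.02 for unc-23 on the log2 scale (limma adjusted p = 0.0152 and 0.0192), and both calls depend on single libraries. The auxin effect after heat shock in JTL611 minus that in CA1200 was −1.0 for hsp-110, −0.91 for dnj-13 and −1.12 for unc-23 (adjusted p = 6.48e-06, 7.7e-06 and 0.000547), with every JTL611 auxin library below every JTL611 ethanol library. The interaction of auxin and heat in JTL611 minus that in CA1200 was −0.94 for hsp-110 (adjusted p = 0.00331). The heat response on ethanol in JTL611 minus that in CA1200 was −0.61 for hsp-110 (adjusted p = 0.0216), on plates without auxin. That call was lost in 5 of 12 fits that left out 1 library (adjusted p of up to 0.116) and at 0.542 where the auxin libraries were not part of the fit. Groups of 3 libraries were not screened for single outlying values.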

How the results depend on the processing

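Of 40 member and comparison pairs called, 29 kept their call in every alternative run, and 55 of 611 alternative values lost it. No value reversed. Apart from the fits that left out 1 library, the number of members called moved by over 1.5 times in 3 cases. Quantile normalization gave 3 members, against 6, for heat on auxin in CA1200. limma-voom gave 1, against 2, for the interaction in JTL611, and a fit to only the libraries compared gave 0, against 1, for heat on ethanol in JTL611 minus CA1200. The cause was not tested. With 1 library left out, the counts ran from 4 to 7 for heat on auxin in CA1200, from 3 to 4 for heat on ethanol in CA1200 and JTL621, from 4 to 6 for heat on ethanol in CA1199, from 3 to 4 and from 3 to 5 for heat on auxin in CA1199 and JTL621, from 0 to 3 for the interaction in JTL611, and, for JTL611 minus CA1200, from 0 to 2 for heat on ethanol and from 1 to 2 for the interaction. They did not move for the auxin effect after heat shock (3 in JTL611 and in JTL611 minus CA1200). Without the JTL621 library with 34.5% rRNA no call of a member changed in the contrasts that use its group. The other JTL621 contrasts, whose fits share its spread, were not refitted without it. Pairing by replicate number as a block gave 8 members, against 6, for heat on auxin in CA1200 and 5, against 4, in CA1199, and changed no other call of a member. The background share moved as well, over 2.36% to 10.5% for heat on ethanol in JTL611, 8.36% to 17.7% in CA1200, 5.02% to 21.7% in JTL621 and 11.9% to 19.1% in CA1199, for heat on auxin over 3.72% to 12.2% in JTL611, 11% to 26% in CA1200, 4.8% to 24.8% in JTL621 and 10% to 27.1% in CA1199, and over 0.283% to 0.425% for auxin after heat shock in JTL611. With 3 libraries a group, whether differences of the size seen for hsp-1, sti-1, dnj-12 and cdc-37 passed over all genes depended on the strain and on the setting.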

Other observations

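Relatives of these chaperones in other compartments were listed for comparison. Over the 4 strains, heat called 6.49% to 18.31% of all genes on ethanol and 7.64% to 19.43% on auxin. Of 7 endoplasmic reticulum genes, dnj-20, which encodes an Hsp40 of that compartment, fell with heat on ethanol in JTL611 (log2 −0.35, SE 0.08, adjusted p = 0.027), CA1200 (log2 −0.35, SE 0.08, adjusted p = 0.0097) and CA1199 (log2 −0.52, SE 0.09, adjusted p = 0.00105) by limma. The BiP gene hsp-4 rose in CA1200 (log2 0.37), JTL621 (0.31) and CA1199 (0.39), while hsp-3, the other BiP gene, fell in CA1199 (−0.36) together with dnj-7 (−0.56). On auxin dnj-20 fell in all 4 strains, by 0.41 on the log2 scale in JTL611 and 0.30 in CA1200, and by 0.84 in JTL621 and 0.48 in CA1199, and dnj-7 fell by 1.0 in JTL621. Also on auxin, hsp-4 rose in CA1200 and CA1199, and hsp-3 and dnj-7 fell in CA1199. Of 4 mitochondrial genes, the Hsp70 gene hsp-6 rose with heat on auxin in CA1200 (log2 0.34, adjusted p = 0.0278) and CA1199 (log2 0.42, adjusted p = 0.0497). In the same contrast trap-1, a mitochondrial Hsp90 gene, fell in JTL621 (log2 −0.66, adjusted p = 0.00879), and on ethanol dnj-10 fell in CA1199 (log2 −0.24, adjusted p = 0.0455). None of these 11 genes was called in an auxin contrast of any strain.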
